A study of Arabidopsis thaliana with 4 samples.

Results

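The comparison is that of OE6, a transgenic line overexpressing DUF761-1 in the Columbia-0 background, with Col-0, the Columbia-0 wild type. It uses 2 of the study's 4 arrays, 1 for each genotype, chosen by their titles, and all 22746 non-control probe sets, of which 151 were at least 2-fold apart. The other 2 arrays hold the duf761-1 mutant, which the series title calls a knock-out, and NO, its wild type, both in the Nossen background, and their levels are given beside those of the Columbia pair. All 4 samples were whole seedlings 2 weeks old, kept at 22 °C on half-strength MS medium with 2% sucrose. Days had 16 h of light, at a photon flux of 100 µmol per m2 each second, and nights lasted 8 h. The transgene's promoter and the number of seedlings per sample are not given in the labels, and OE6 is a single line. Each genotype has 1 array, so the differences lack any check by replicates and none was tested. Differences are described by size only, and differences between the line and its wild type cannot be told apart from differences between these seedling samples.

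DUF761 is a protein domain of unknown function that is found in plant proteins. Starch is broken down by amylases and related enzymes, and sugars are moved between cells by carriers such as those of the SWEET family. Growing cell walls are loosened by expansins and remodelled by pectin methylesterases, and the wall and its surroundings also hold secreted proteases, lipid transfer proteins and lectins, many of which respond to stress or microbes. The ATH1 array reads each transcript with a probe set, a group of short oligonucleotides designed on the Columbia sequence, and a Nossen transcript that differs in sequence can therefore read low.

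On each array the deposited signals averaged 500 after trimming 2% of probe sets at each end, in arbitrary MAS5 units. Signals below a floor of 102 were raised to it, and 61.2% of the non-control probe sets lay above the floor on OE6 and 61.7% on Col-0, against 58.4% on duf761-1 and 58.9% on NO. The ratio of 3′ to 5′ control probe sets, which reflects RNA integrity and labelling, was 1.38 on OE6 and 1.29 on Col-0 for GAPDH, and 2.06 on OE6 and 1.61 on Col-0 for actin. For actin it was 0.267 on duf761-1 and 0.279 on NO, while for GAPDH it was 1.19 and 1.14 on these arrays. For ubiquitin it was 1.27 on OE6, 1.16 on Col-0, 1.1 on duf761-1 and 1.08 on NO. The low actin ratio of the Nossen arrays was thus not shared by GAPDH or ubiquitin. The part of these technical differences in the results was not tested.

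OE6 exceeded Col-0 by 2-fold or more at 77 of the 22746 non-control probe sets (0.339%) and was below it by as much at 74 (0.325%), which makes 151 in all (0.664%). Over the 14447 probe sets above the floor on OE6 or Col-0 the shares were 0.533% higher and 0.512% lower. Past 4-fold there were 5 higher (0.022%) and 6 lower (0.0264%). Of the calls 51.0% were higher; with the arrays scaled on the spike-in controls instead, 67 probe sets were higher and 109 lower, and 38.1% of the calls were higher. For comparison, 112 probe sets were 2-fold apart between duf761-1 and NO (0.492%). The shift was small for nearly all transcripts. Over the same 14447 probe sets, the median log2 ratio of OE6 over Col-0 was -0.02 and the SD was 0.32, with the 1st percentile at -0.82 and the 99th at 0.83. As a yardstick of measurement noise, pairs of probe sets for 1 gene were set against each other, and over 68 such genes with both above the floor the log2 ratios had an SD of 0.23 per probe set. This yardstick leaves out differences between plants and labelling reactions. Most members lay close to the threshold: 64 of the 77 higher and 61 of the 74 lower probe sets were less than 3-fold apart. On the higher side 19 lay within 0.1 log2 units inside the threshold and 29 within 0.1 outside it, with nearest values of 1.01 and 0.998. On the lower side the numbers were 22 inside and 33 outside, with nearest values of -1.001 and -0.99. The value on the Col-0 side was at the floor for 23 of the higher probe sets, and that on the OE6 side for 13 of the lower ones, so their ratios are bounds.

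**Figure D1:**
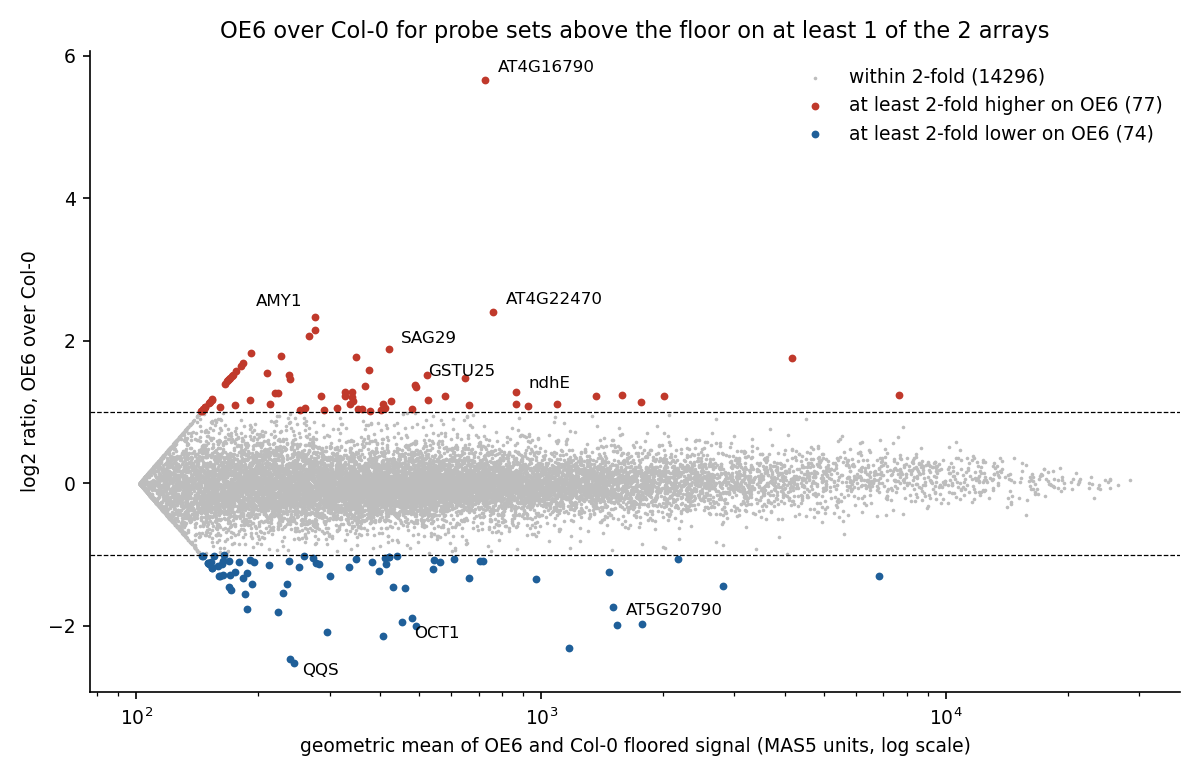
Log2 ratio of OE6 over Col-0 (vertical axis) against the geometric mean of the floored signals of the 2 arrays (horizontal axis, log scale), 1 point per probe set above the floor on OE6 or Col-0, with dashed lines at 2-fold. AT4G16790 stands alone at 5.66, while most of the 77 higher and 74 lower probe sets lie just past the lines and at low to middling signal.

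The share of probe sets past 2-fold was larger at low signal than at high signal. Among those with a mean signal between the floor and 200, 0.751% were 2-fold higher and 0.871% 2-fold lower on OE6, although a mean close to the floor leaves no room for a 2-fold difference. Among those above 3200, 0.205% were higher and 0.102% lower. The SD of the log2 ratios was 0.37 in the dimmest class and 0.23 in the brightest. A 2-fold difference therefore stands further outside the spread for bright transcripts than for dim ones.

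**Figure D2:**
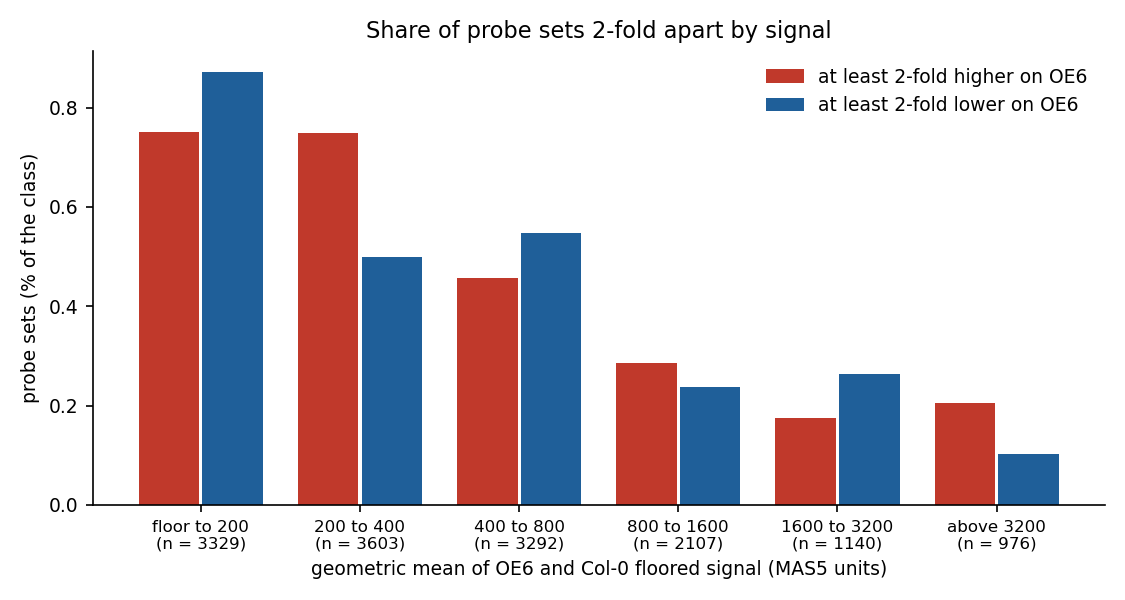
Share of probe sets at least 2-fold higher (red) or lower (blue) on OE6 relative to Col-0, in classes of mean signal. The share is largest in the 2 or 3 dimmest classes and is at most 0.285% in each class above a mean signal of 800.

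The furthest member by a wide margin was the probe set of AT4G16790. Its signal was 5171 on OE6, against 91.1 on Col-0, and it was 24.3 on duf761-1 and 118 on NO. OE6 was thus at least 50.7-fold higher than Col-0 (log2 ratio at least 5.66), and no other probe set was at least 8-fold apart after the floor was applied. Without the floor other probe sets also passed 8-fold, among them QQS, described further on, with a log2 ratio of -3.02. Dimmer examples were UGT73C1, at 1.89 on OE6 and 73.9 on Col-0, and CSLA01, at 57.5 and 4.09. Such ratios rest on signals below the floor. The neighbouring gene AT4G16800 had signals of 470.4 on OE6 and 384 on Col-0, a log2 ratio of 0.29, which is under 2-fold. The labels give no locus for DUF761-1 and the annotation used here names no gene so, and the overexpression could therefore not be checked at its target.

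Among genes of carbohydrate turnover and transport, AMY1, SAG29 and cwINV6 were at least 2-fold higher on OE6 and QQS was at least 2-fold lower. AMY1, a secreted alpha-amylase, had a signal of 620.4 on OE6 and 123 on Col-0, with 53.2 on duf761-1 and 52.8 on NO, and was 5.05-fold higher on OE6. SAG29, the sugar transporter SWEET15, which is known from senescing leaves, had 806 on OE6 and 219 on Col-0, and was below the floor on both Nossen arrays at 9.46 and 19.4 (a ratio of 3.69 between OE6 and Col-0). The annotation lists cwINV6 also as a fructan exohydrolase, an enzyme related to cell wall invertases, and its signal was 291 on OE6 and 101 on Col-0, with 147 on duf761-1 and 113 on NO (at least 2.85-fold). For all of them OE6 was the highest of the 4 arrays. In the list of starch and sucrose metabolism, 2 of 9 measured genes were 2-fold higher and 1 was lower, with a median log2 ratio of -0.19; the lower gene is QQS, described further on. All 7682 named genes above the floor had a median of -0.02 and 0.495% were higher and 0.495% lower. Of the 9 measured genes of the list, 5 had log2 ratios below 0. In the list of sugar transport SAG29 was the only one of 12 measured genes past 2-fold, and the median was -0.04. Of the same list, SWEET10, at 76.0 on OE6 and 191 on Col-0, was at the floor on OE6, with a log2 ratio of -0.90 or lower.

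Of cell wall proteins, EXLA1, ATPMEPCRB and AT5G62340 were at least 2-fold higher on OE6, while most measured genes of the wall lists were within 2-fold. EXLA1, an expansin-like protein, had a signal of 403 on OE6 and 141 on Col-0, with 277 on duf761-1 and 263 on NO. ATPMEPCRB, a pectin methylesterase, had 278 on OE6 and 75.1 on Col-0, with 247 on duf761-1 and 314 on NO. AT5G62340, of the family of invertase and pectin methylesterase inhibitors, had 589 on OE6 and 229 on Col-0, with 545.03 on duf761-1 and 557 on NO. In these genes Col-0 was the lowest of the 4 arrays, and OE6 was close to the Nossen arrays for ATPMEPCRB and AT5G62340. With the floor at the 60th percentile EXLA1, ATPMEPCRB and cwINV6 were within 2-fold. Among expansins 1 of 11 measured genes was 2-fold higher and none lower (median 0.17), and EXLB1, another expansin-like gene, lay on the other side at 332 on OE6 and 589.8 on Col-0 (-0.83). Among pectin enzymes 1 of 6 was higher and none lower (median 0.04), with PME61 at 84.5 on OE6 and 137 on Col-0 (-0.43 or lower). None of 8 genes for cellulose and wall glycoproteins was past 2-fold (median -0.06). None of 6 xyloglucan enzymes was past 2-fold in either direction (median 0.22), the largest ratio being that of EXGT-A3, at 3023 on OE6 and 1979.8 on Col-0 (0.61).

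Secreted proteases were represented by 2 subtilases and an aspartyl protease. SBT4.12 had a signal of 886 on OE6 and 379.7 on Col-0, with 170.4 on duf761-1 and 159 on NO. SBT3.5 had 537 on OE6 and 265 on Col-0, with 281 and 209 on the Nossen arrays, and lies just inside the threshold at 1.02, but within 2-fold with spike-in scaling. AT4G04460, a saposin-like aspartyl protease, had 653 on OE6 and 216 on Col-0, with 100.4 on duf761-1 and 154 on NO. In the list of secreted proteases and glycosidases 2 of 34 measured genes, the subtilases, were higher and none lower, with a median of 0.05.

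Some lipid transfer proteins and lectins were higher on OE6. AT4G22470, of the family of lipid transfer proteins, had the second highest ratio among all probe sets, with a signal of 1750.2 on OE6 and 330.1 on Col-0, against 135 on duf761-1 and 166 on NO (5.3-fold higher on OE6, log2 ratio 2.41). AT4G12490 and AT4G12500, members of the same family that stand 2 genes apart on the chromosome and were chosen after their values were seen, had log2 ratios of 1.23 and 1.12. AT4G12490 had a signal of 2097 on OE6 and 893 on Col-0, and AT4G12500 had 496 and 228. The jacalin-type lectin genes AT1G52050, AT1G52060 and AT1G52070 follow each other directly, and all were at least 2-fold higher on OE6. AT1G52060 had 546 on OE6 and 130.3 on Col-0, but 937 on duf761-1 and 779 on NO. AT1G52070 had 511 on OE6 and 209 on Col-0, with 443 on duf761-1 and 395 on NO, and AT1G52050, chosen after its values were seen, had 223 on OE6 and was below the floor on the other 3 arrays. With the floor at the 60th percentile AT1G52060 and AT1G52070 were within 2-fold. The lectin run is thus not alike over the backgrounds: for AT1G52060 the Nossen arrays lay above both Columbia arrays, and for AT1G52050 below OE6. Adjacent genes of a family can cross-hybridise, and these values may not be separate measurements. Of 53 direct neighbours of named members with a named probe set above the floor, 4 were themselves 2-fold apart, and all 4 belong to this lectin run, in which each adjacent pair counts in both directions.

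Genes of detoxification, calcium sensing and defence were single members of their families. GSTU25, a tau-class glutathione S-transferase, had a signal of 789.9 on OE6 and 303 on Col-0, with 1319 on duf761-1 and 890.0 on NO, and its log2 ratio was 1.38. Of the 8 measured genes of its class no other was past 2-fold (median 0.15). CML23, a calmodulin-like calcium sensor, had 349 on OE6 and 144 on Col-0 and was below the floor on both Nossen arrays, and 1 of 5 measured calcium sensors was past 2-fold. PDF2.5, a defensin, had 502 on OE6 and 214 on Col-0, with 206 on duf761-1 and 157 on NO. Its relative PDF2.1 had 828 on OE6 and 444 on Col-0 (0.90), while PDF1.2b, a defensin gene known to respond to jasmonate and chosen after its values were seen, had 666 on OE6 and 969 on Col-0 (-0.54). In the defence list 1 of 9 measured genes was past 2-fold, with a median of 0.03. AT1G30700, a berberine bridge enzyme-like oxidase, had 783 on OE6 and 306 on Col-0, and AT1G74010, a strictosidine synthase-like protein, had 304 on OE6 and 92.4 on Col-0. AT5G54370, related to late embryogenesis abundant proteins, had 398 on OE6 and 144 on Col-0, but 915 on duf761-1 and 674 on NO. With the floor at the 60th percentile CML23, PDF2.5, AT1G74010 and AT5G54370 were within 2-fold.

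The plastid gene ndhE, which encodes a subunit of the NADH dehydrogenase-like complex, had a signal of 1350.4 on OE6 and 556 on Col-0, with 1488 on duf761-1 and 506 on NO. It was the only one of 67 measured plastid-encoded genes past 2-fold, and the median of all 67 was 0.21. The same gene was at least 2-fold higher on duf761-1 than on NO (log2 ratio 1.56). Other plastid-encoded genes also passed 2-fold between these arrays, among them rpoA at 2.94, with psbA going the other way at -1.52.

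**Figure D3:**
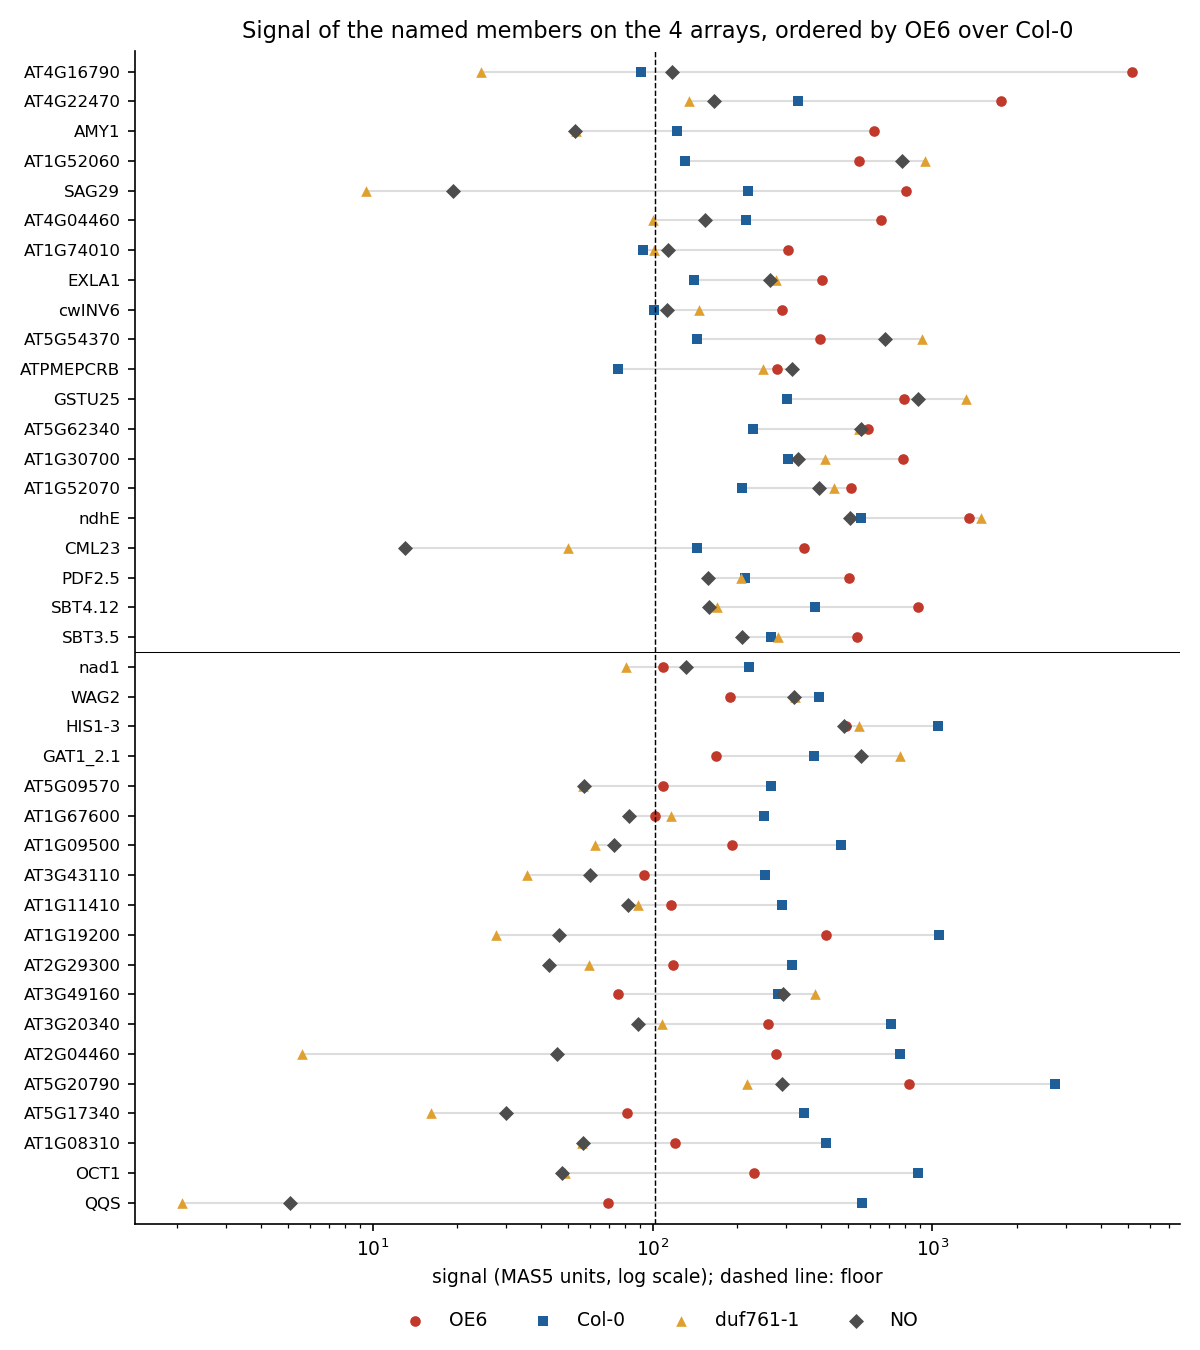
Signal of the 39 named members on OE6 (red circles), Col-0 (blue squares), duf761-1 (yellow triangles) and NO (grey diamonds), log scale, from the highest to the lowest ratio of OE6 over Col-0, with the floor as a dashed line. Above the black line OE6 exceeds Col-0, and below it Col-0 exceeds OE6 and is mostly the rightmost point.

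On the lower side the furthest named gene was QQS, an Arabidopsis gene without relatives in other plants that is known to affect starch content. Its signal was 69.4 on OE6 and 562 on Col-0, and 2.09 on duf761-1 and 5.09 on NO, so that OE6 was at least 5.51-fold lower than Col-0. With the floor raised to the 60th percentile of signals, 288, QQS was within 2-fold. OCT1, an organic cation transporter, had 231 on OE6 and 887 on Col-0, with 48.6 on duf761-1 and 47.5 on NO (3.84-fold lower on OE6). AT5G20790 had 823 on OE6 and 2745 on Col-0, with 218 on duf761-1 and 289.9 on NO (3.33-fold lower on OE6). Transcripts of OCT1 and AT5G20790 are known to accumulate in phosphate-starved Arabidopsis. The list of phosphate starvation markers could not show whether this group differed, because 1 of its genes, PAP20, was measured, at a log2 ratio of 0.19. AT1G08310, a hydrolase gene, had 119.9 on OE6 and 417 on Col-0, and AT5G17340 had 81.3 and 347. In these genes Col-0 was the highest of the 4 arrays, and the Nossen arrays were below the floor for QQS, OCT1, AT1G08310 and AT5G17340. Raising the floor to the 60th percentile also took AT1G08310 and AT5G17340 within 2-fold.

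Col-0 was also the highest of the 4 arrays for further lower members. AT1G19200 had a signal of 418 on OE6 and 1052 on Col-0, with 27.7 on duf761-1 and 46.4 on NO. AT2G04460, which the reference table lists as a pseudogene, had 277 on OE6 and 764 on Col-0, with 5.59 and 45.7 on duf761-1 and NO. AT3G20340 had 259 on OE6 and 712 on Col-0, with 108 and 88.9. For these genes both Columbia arrays were well above the floor. At lower signal stood AT2G29300, of a family of tropinone reductase-like dehydrogenases (118 on OE6 and 315 on Col-0), AT1G11410, a receptor-like kinase (116 and 291), and AT3G43110 (92.9 and 252). AT1G09500, related to cinnamyl alcohol dehydrogenases, had 192 on OE6 and 471 on Col-0. AT1G67600, related to acid phosphatases, was at the floor with 102 on OE6 against 250.3 on Col-0, and AT5G09570 had 109 and 266. AT2G29300, AT1G11410, AT3G43110, AT1G09500, AT1G67600 and AT5G09570 were all within 2-fold with the floor at the 60th percentile, and also with a pseudocount equal to the floor.

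Other lower members differed in that the Nossen arrays were not low. GAT1_2.1, a glutamine amidotransferase-like gene linked to nitrogen status, had a signal of 168 on OE6 and 379 on Col-0, with 765 on duf761-1 and 555 on NO. AT3G49160, of the pyruvate kinase family, had 75.5 on OE6 and 280 on Col-0, with 380 on duf761-1 and 292 on NO. WAG2, a protein kinase that acts on auxin transporters, had 189.8 on OE6 and 394 on Col-0, with 323 on duf761-1 and 319 on NO. In all of these OE6 was the lowest of the 4 arrays. HIS1-3, a drought-inducible linker histone, had 491 on OE6 and 1050 on Col-0, with 548 on duf761-1 and 482 on NO, so that here Col-0 stood apart from 3 similar arrays. With the floor at the 60th percentile GAT1_2.1, AT3G49160 and WAG2 were within 2-fold, and HIS1-3 was within it with the pseudocount (-0.96). In the auxin list WAG2 was 1 of 8 measured genes past 2-fold and the median was -0.19; IAGLU, an auxin glucosyltransferase, had 859.8 on OE6 and 1612 on Col-0 (-0.91). In the list of nitrogen and amino acid genes GAT1_2.1 was 1 of 13 past 2-fold, and the median was -0.15. MGL, a methionine gamma-lyase, had 376 on OE6 and 741 on Col-0 (-0.98). All 13 ratios were below 0, but most by less than the noise yardstick of 0.23. The share of ratios below 0 over all measured genes was not computed.

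For 3 named member genes other probe sets give a check within the arrays. The second probe set of GAT1_2.1 was below the floor on all 4 arrays and gives no ratio. For AT3G57160, chosen after its values were seen, the probe sets went opposite ways, at -1.11 or lower and 0.34. Of 7 probe sets of the mitochondrial gene nad1, a subunit of respiratory complex I, 3 gave ratios of -1.02, -0.91 and -0.76, 1 gave 0.09, and 3 were below the floor on OE6 and Col-0. The nad1 signals were dim, at 109 on OE6 and 221 on Col-0 for the furthest probe set. Over 6 measured mitochondrion-encoded genes the median was -0.38, with nad9 at -0.94 or lower and the highest ratio at -0.09.

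Placed beside the Nossen arrays, the members showed mostly 1 Columbia array standing out at the top. OE6 was alone the highest of the 4 arrays for 65 of the 77 higher probe sets, and Col-0 alone the highest for 61 of the 74 lower ones. Over all probe sets above the floor on OE6 or Col-0, OE6 was alone highest for 23.5% and Col-0 for 30.9%. The choice of members fixes part of this order, since each was picked for 1 Columbia array exceeding the other, and nothing is read from the excess. Col-0 was alone the lowest for 30 of the higher probe sets, against 22.5% of all, and OE6 for 26 of the lower ones, against 22.3% of all. Both Nossen arrays were within 2-fold of Col-0 for 49 of the 77 higher probe sets and within 2-fold of OE6 for 21. For the lower probe sets they were within 2-fold of Col-0 for 14 of 74 and within 2-fold of OE6 for 46. The matching shares over all probe sets were not computed, and signals at the floor count here as equal. The choice of members fixes part of these counts as well, and no likeness of the Nossen arrays to either Columbia array is read from them.

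**Figure D4:**
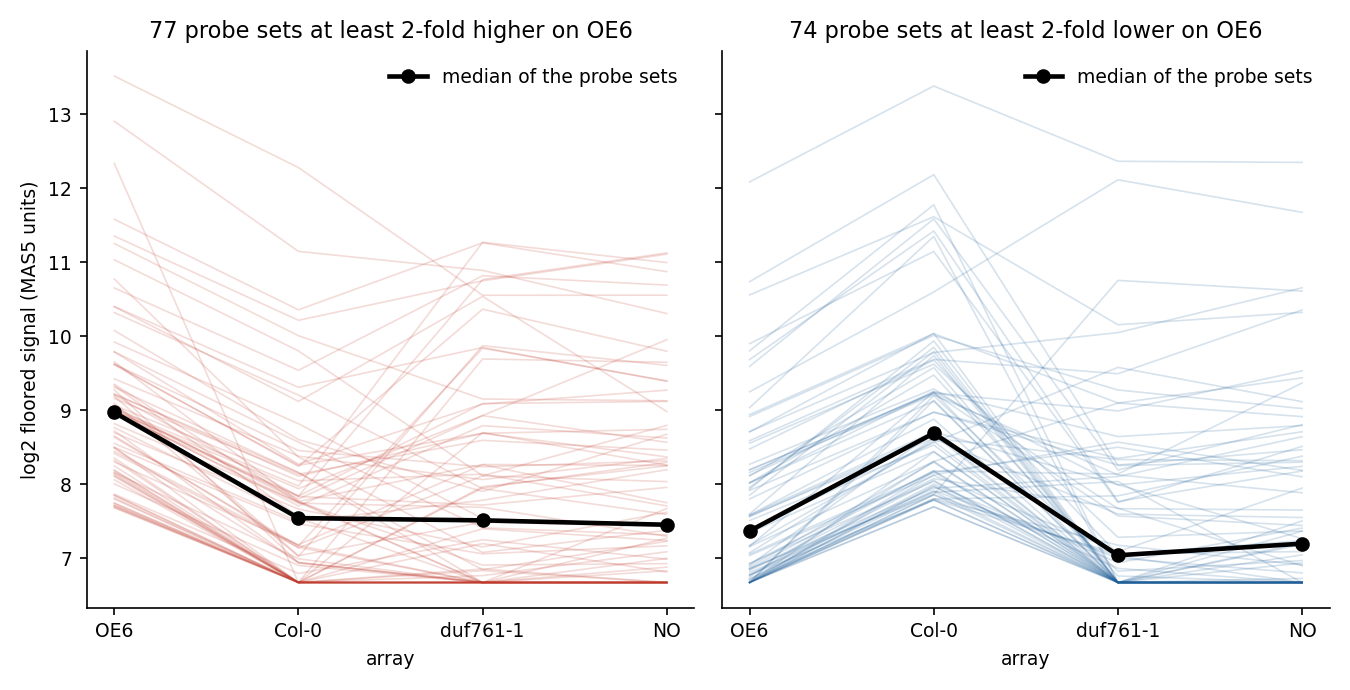
Log2 floored signal on the 4 arrays for the 77 higher probe sets (left) and the 74 lower ones (right), 1 thin line per probe set and the median in black. On the left the median is 8.97 on OE6, 7.54 on Col-0, 7.51 on duf761-1 and 7.45 on NO, and on the right 7.37 on OE6, 8.69 on Col-0, 7.04 on duf761-1 and 7.20 on NO.

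For 21 of the 74 lower probe sets both Nossen arrays were at least 4-fold below Col-0, as they were for 1.69% of all probe sets above the floor. The named ones were QQS, OCT1, AT5G20790, AT1G08310, AT3G20340, AT2G04460, AT1G19200, AT1G09500 and AT5G63130, the last chosen after its values were seen. For 15 of the 77 higher probe sets both Nossen arrays were at least 4-fold below OE6, against 1.38% of all, among them AMY1, SAG29, AT4G22470, AT4G04460, SBT4.12 and AT4G12490. In the other direction, 5 higher probe sets had both Nossen arrays at least 4-fold above Col-0, against 0.796% of all. These include AT1G52060, AT5G54370 and AT3G19680, the last chosen after its values were seen, which had 519 on OE6 and 252 on Col-0, with 2469 on duf761-1 and 2042 on NO. The choice of members fixes part of these counts too, since each was picked for a difference between OE6 and Col-0. Nothing is read from their excess over the shares of all probe sets. A low Nossen signal can reflect sequence differences at the probes as well as a low transcript level, which these data cannot tell apart.

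The ratios of duf761-1 over NO, which share no array with those of OE6 over Col-0, had a median of 0.00 over the 77 higher probe sets (range -1.02 to 1.56) and 0.00 over the 74 lower ones (range -1.23 to 1.37). Both Nossen arrays were at or below the floor, which sets the ratio to 0, for 20 of the higher and 24 of the lower probe sets. Of the 151 members, 5 were also 2-fold apart between duf761-1 and NO, against 0.492% of all 22746 non-control probe sets. The latter include 8299 at or below the floor on both OE6 and Col-0, where no member lies. The comparison is therefore not like for like, and nothing is read from it. Among the higher members 1 was higher and 2 were lower on duf761-1, and among the lower members 1 was higher and 1 was lower. The named ones were ndhE, AT1G64360 and AT5G19890. AT1G64360, chosen after its values were seen, had a signal of 106 on OE6 and 238 on Col-0, and 263 on duf761-1 and 49.0 on NO. AT5G19890, a peroxidase gene also chosen after its values were seen, had 122 on OE6 and 290.03 on Col-0, and 282 on duf761-1 and 661 on NO.

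Of 35 lists chosen by gene family, 29 had at least 3 measured genes, and their median log2 ratios lay between -0.38 (mitochondrion-encoded genes) and 0.34 (root and root hair markers). No list held more than 3 genes past 2-fold. Of the 76 named genes 2-fold apart, 59 belonged to no list. Nuclear photosynthesis genes had none of 12 past 2-fold and a median of -0.01, and the cell division and cytoskeleton list had none of 20 and a median of 0.05. UDP-glycosyltransferases had none of 30 (median -0.06) and cytochrome P450 genes none of 14 (-0.13), with CYP71B22 furthest at 496.02 on OE6 and 860 on Col-0 (-0.79). In the clock and light signalling list none of 3 was past 2-fold, and GI, a gene of the circadian clock, had 1158 on OE6 and 1684 on Col-0 (-0.54).

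**Figure D5:**
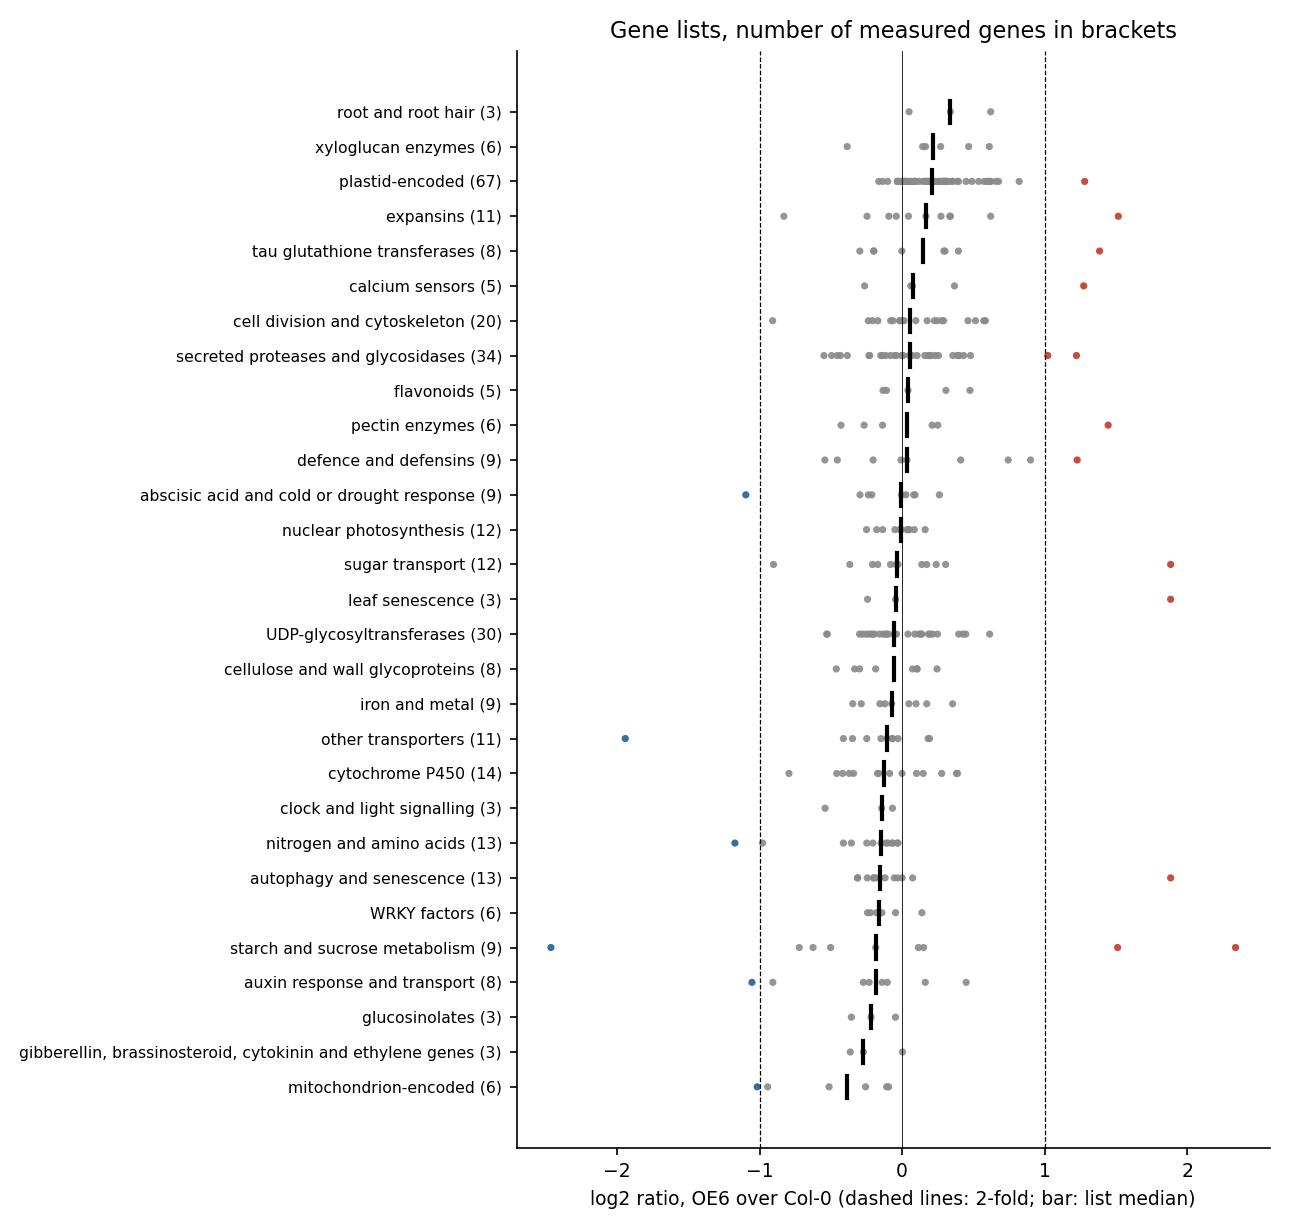
Log2 ratio of OE6 over Col-0 for each measured gene of the 29 lists with at least 3 measured genes (points, red and blue past 2-fold), with the list median as a black bar and the number of genes in brackets. All medians lie between -0.38 and 0.34, and no list holds more than 3 coloured points.

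Markers of organs were checked because whole seedlings can differ in make-up. The 3 measured root and root hair markers had log2 ratios of 0.62 for EXPA18, 0.34 for EXPA7 and 0.05 for PYK10, whose signal was 16513 on OE6 and 15970 on Col-0. The summed signal of this list was 16998 on OE6 and 16313 on Col-0. Of the leaf senescence markers SAG29 was past 2-fold, WRKY6 had a ratio of -0.05 and WRKY53 one of -0.24 or lower. The summed signal of the senescence markers was 1248 on OE6 and 701 on Col-0, with SAG29 giving the difference. Both seed and embryo markers with a named probe set, M17 and OLEO3, were at or below the floor on OE6 and Col-0, and no flower or pollen marker had a named probe set. In a whole seedling, fewer cells of a type and less RNA per cell cannot be told apart.

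Probe sets without a gene name in the annotation used here made up 37 of the higher and 33 of the lower members, and 2 more on each side match several genes. The furthest unnamed ones on the higher side were 266292_at, with a signal of 583 on OE6 and 131 on Col-0, and 264505_at, with 362 on OE6 and 63.4 on Col-0. On the lower side they were 264729_at, with 90.9 on OE6 and 587 on Col-0, and 259399_at, with 525 on OE6 and 2610.1 on Col-0. Of the 13 lower probe sets at least 3-fold apart and the 6 at least 4-fold apart, most are unnamed. Most of the 13 higher probe sets at least 3-fold apart are unnamed too, so the named genes give an incomplete picture of both sides. The 18 higher named members not taken by the naming rule had log2 ratios from 1.01 to 1.28, and the 20 lower ones from -1.25 to -1.02. The remaining 35 unnamed higher members ranged from 1.02 to 1.79 and the 31 lower ones from -2.14 to -1.001.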

How the data were processed

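The authors' deposited values are linear signal intensity per probe set on Affymetrix ATH1 arrays, made with MAS5 per the submitters' processing notes. The version and genome build are not given in the sources used here. Judged by its values, each array was scaled to a common trimmed mean, which hides any difference in total mRNA, and MAS5 is noisy at low signal. No sequence tables were used here.

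Of 22810 probe sets 64 controls were left out. Values under the floor of 102, the 40th percentile of the non-control signals pooled over the 4 arrays, were set to the floor before log2 ratios were formed. Where OE6 or Col-0 lies at the floor the ratio is a bound. With 1 array per genotype no test was run, the number of arrays limits the precision, and probe sets were counted at 2-fold. Of the non-control probe sets 13513 carry 1 gene name, 503 several and 8730 none. Gene names follow RefSeq's TAIR10.1 table, which held 13285 of the 13355 genes and also gave gene order. In lists a gene was represented by its probe set with the highest mean log2 signal. Named genes are all members with a symbol, the 15 highest and 15 lowest named ratios, up to 3 genes per list and 2 unnamed probe sets at each end. The members and the lists were chosen with earlier results of these data known, and wrongly matched symbols were removed from lists after the annotation was read. The 2-fold count was tested on simulated data with 3-fold and 4-fold changes, placed only where the Col-0 signal was above 4 times the floor. It was not tested for dim probe sets or for changes under 3-fold, where most members lie. Python 3.11.15, pandas 2.3.3 and statsmodels 0.14.6 were used. Alternatives were other floors, scalings, thresholds and choices of probe sets.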

Additional observations from a re-analysis of the deposited data

How the results depend on the processing

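No paired analysis was possible because each genotype has 1 array. The 2-fold counts, 77 higher and 74 lower on OE6 than on Col-0, depended on the floor. They were 182 higher and 224 lower when the floor was the 25th percentile, 29 and 30 when it was the 60th, 1488 and 1979 with no floor, and 38 and 26 with a pseudocount equal to the floor. At 3-fold they were 13 and 13, and with only probe sets of 1 gene name 38 and 39. Scaling moved the split: 51.0% of calls were higher in the setting used, and 38.1% with spike-in scaling (67 higher, 109 lower). With quantile normalization, median scaling, loess, cross-hybridising suffixes left out, or only probe sets above the floor on both arrays (chosen after seeing the data), both counts stayed within 1.5 times. The higher members with OE6 alone highest numbered 65, and 124, 26, 785 and 28 with the 4 changes of floor in the same order. The lower members with Col-0 alone highest numbered 61, and 185, 26, 1187 and 24, with 97 under spike-in scaling. Of 43 named genes and probe sets past 2-fold, 18 stayed past it under all 8 changes of floor and scaling, and none changed direction. Under both the higher floor and the pseudocount, genes that came within 2-fold include cwINV6, CML23, PDF2.5, WAG2, GAT1_2.1 and nad1. SBT3.5 was also within it with spike-in scaling. Of the list medians, 2 moved by more than the noise yardstick of 0.23, both with the floor at the 60th percentile, to 0.01 for root and root hair markers and 0.00 for mitochondrion-encoded genes. Signal over background limits all ratios of dim probe sets.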
